A study of Mus musculus with 3 samples.

Results

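The genes of Wnt ligands, their receptors and their regulators were followed across 3 Affymetrix arrays of the NMuMG line, epithelial cells derived from mouse mammary gland. The group holds every gene whose single annotated symbol is Wnt or Fzd followed by a number, and 28 named co-receptors, secreted inhibitors, intracellular regulators, R-spondin receptors, ligases and nuclear factors. Of these 57 symbols, 56 had a probe set of their own among the 19935 genes measured: 19 Wnt genes, 10 Frizzled genes and 27 others. Tcf7 was not analysed here. Where a gene had several probe sets, the one with the highest mean was used, and 55 of the 56 had only 1.

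One array held NMuMG cells carrying the pCAGIP vector (mock, n = 1). The other 2 held stable lines carrying pCAGIP-FLAG-MafK, clone 4 and clone 10 (MAFK, n = 2), and all 3 were grown with serum and puromycin. MAFK is a small MAF protein that binds DNA alone or with partners of the CNC family. Each MAFK array is 1 clone, and mock is not labelled as clonal, so an effect of MAFK and a difference that arose in cloning cannot be told apart. The labels do not say whether cultures were separate, so the p-values reflect no more than the spread of the 2 MAFK arrays, which may be technical.

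Wnt proteins are lipid-modified by Porcupine, secreted, and bound by Frizzled receptors. With the co-receptors LRP5 or LRP6 they keep beta-catenin from being degraded by a complex that holds Axin and APC, and beta-catenin then acts with TCF and LEF factors in the nucleus. With ROR or RYK receptors, Wnt proteins also steer cell polarity and movement. In the mammary gland, Wnt signals are known for their part in branching of the ducts and in the upkeep of basal progenitor cells.

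Few Wnt genes differed much between MAFK and mock cells. Ror1, the gene of a receptor for WNT5A, was the 1 member of 56 (1.79%) 2-fold or more from mock on the same side in both clones. It was 2.22-fold lower with MAFK. Across all genes 3.0% met that rule, 1.19% higher and 1.81% lower, so the share among Wnt genes was not above the background. At 1.5-fold, 4 members were apart (7.14%, beside 6.17% of all genes): Znrf3 was higher (1.79%, beside 2.54%), and Ror1, Fzd3 and Wnt10a were lower (5.36%, beside 3.63%). No member passed limma's moderated test at a Benjamini-Hochberg adjusted p under 0.05 over all genes, a test that called 1.16% of genes, 0.401% higher and 0.762% lower. At an unadjusted p under 0.05, 10 members (17.9%) lay below the threshold, beside 17.5% of all genes. Limma with its own prior called 10 members too, not all of them the same (17.9%, beside 17.8% of all genes), and after a second quantile normalization limma called 8 (14.3%, beside 11.4%). No member is therefore said to have risen or fallen, and values are given instead.

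Values are log2 RMA values, a background-corrected and quantile-normalised intensity per probe set, so 1 unit is a 2-fold difference within a gene. The array medians were 6.89 in mock, 6.92 in clone 4 and 6.93 in clone 10. Probe sets respond unequally, so values are compared between arrays and not between genes. RMA over 3 arrays often returns the same value for several arrays: 15 of the 56 members (26.8%) were equal on all 3, beside 34.3% of all genes, and 31 (55.4%) were equal in both clones, beside 55.5%. A tie in the clones gives the smallest standard error the fit allows (0.07), which counts in favour of passing. It does not show that the clones were alike, nor that a value equal on every array did not differ.

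The median size of difference was 0.04 in clone 4 and 0.07 in clone 10 over the members, against 0.04 and 0.04 over all genes. In sign, 25 members were higher than mock in both clones and 8 were lower. The shares were 44.6% and 14.3%, against 33.7% and 17.9% of all genes. Clone 4 had a median difference of 0.02 and clone 10 of 0, against 0 in both over all genes. The mean differences ran from -1.15 for Ror1 to 0.86 for Znrf3.

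**Figure D1:**
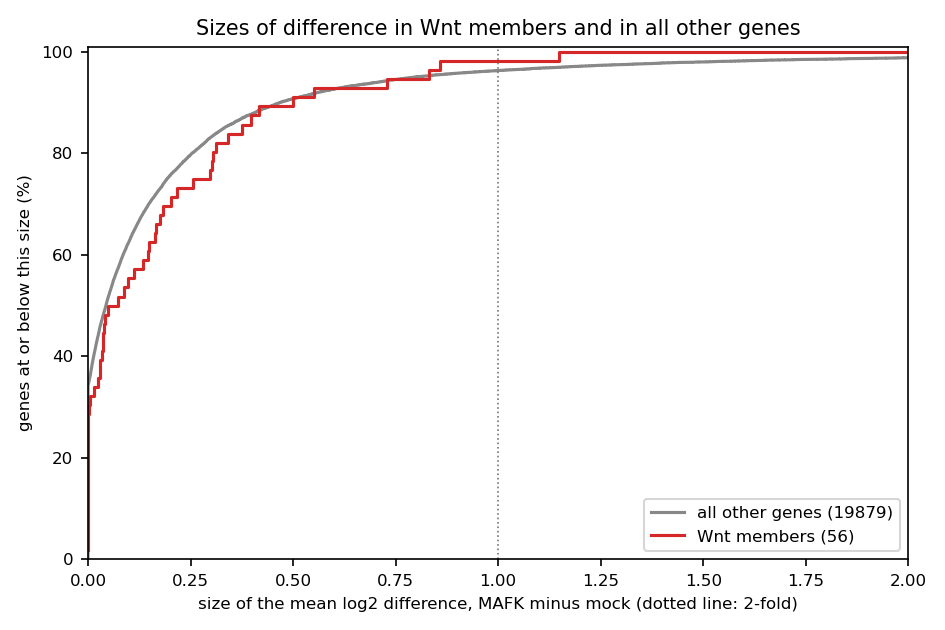
Cumulative share of genes (vertical axis, percent) by the size of the mean log2 difference of the 2 MAFK clones from mock (horizontal axis) for the 56 Wnt members (red) and all other genes (grey). Differences from mock stayed below 0.2 in size in each clone for 64.3% of the members and 71.7% of all genes. These shares count each clone's difference and are not read off the plotted mean. The red curve reaches its top at Ror1, the only member past the dotted line at 2-fold, with a size of 1.15.

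The Ror1 promoter is shown because Ror1 had the largest difference, beside those of Lgr4 and Tcf7l1, members with differences in opposite directions whose promoters hold a match to the antioxidant response element. That element is bound by CNC factors with small MAF proteins. Each line gives the 250 bases before the start of the gene, 5′ to 3′ in the direction of the gene, from RefSeq in build GRCm38.p6, with a match in capitals and all else in lower case. The windows are chr4:100095541-100095790, plus strand for Ror1, chr2:109917397-109917646, plus strand for Lgr4, and chr6:72789046-72789295, minus strand for Tcf7l1.
Ror1: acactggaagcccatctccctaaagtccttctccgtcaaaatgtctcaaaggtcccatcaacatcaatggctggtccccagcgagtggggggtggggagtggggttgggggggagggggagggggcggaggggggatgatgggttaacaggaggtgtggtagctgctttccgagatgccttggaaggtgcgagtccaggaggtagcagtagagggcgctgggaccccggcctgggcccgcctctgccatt
Lgr4: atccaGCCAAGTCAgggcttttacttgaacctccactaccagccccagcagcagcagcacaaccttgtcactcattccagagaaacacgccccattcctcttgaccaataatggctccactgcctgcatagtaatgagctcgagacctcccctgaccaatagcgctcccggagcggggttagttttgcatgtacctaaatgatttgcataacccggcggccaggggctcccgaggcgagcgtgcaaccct
Tcf7l1: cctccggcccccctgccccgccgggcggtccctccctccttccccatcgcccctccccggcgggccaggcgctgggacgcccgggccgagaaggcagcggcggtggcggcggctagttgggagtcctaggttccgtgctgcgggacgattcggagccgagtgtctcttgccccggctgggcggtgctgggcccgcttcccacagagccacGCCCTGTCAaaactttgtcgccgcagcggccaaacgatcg

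Promoters were found for 38 of the 56 members, some with several starts. The antioxidant response element was searched as TGACNNNGC on both strands and occurred before 7 of the 38 genes (18.4%), beside 11.5% of all genes in the promoter table. The 7 were Fzd5, Fzd9, Lgr4, Tcf7l1, Wnt5b, Wnt11 and Wnt16. Fzd5 and Wnt11 had equal values on all arrays, while the mean differences of the other 5 ran from -0.42 for Lgr4 to 0.34 for Tcf7l1. The TCF and LEF motif, searched as CTTTGAT or CTTTGAA on both strands, occurred before Dkk1, Wnt5b and Wnt11 (7.89% of members, beside 8.63% of all genes). A half-site for MAF proteins, searched as TGCTGAC on both strands, occurred before Lef1 and Wnt9b (5.26%, beside 4.31% of all genes). It can overlap the antioxidant response element, since both hold TGAC, but no member had both. A match is a run of letters and not a measured binding site.

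Among the ligand genes, Wnt10a and Wnt6 stood furthest from mock. Wnt10a, a ligand gene of skin appendages and mammary epithelium, stood at 8.83 in mock, 8.16 in clone 4 and 7.83 in clone 10 (probe set 10347497). Both clones were below mock, with differences of -0.67 and -0.998 on the log2 scale, and clone 10 thus came just short of 2-fold. The mean difference was -0.83 ± 0.18 (SE), or 1.78-fold lower, with a limma adjusted p of 0.197. Wnt6 read 6.21 in mock and 6.60 in each clone, a difference of 0.40 ± 0.07 (SE) with a limma adjusted p of 0.153.

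Wnt3a, which encodes a strong activator of beta-catenin signalling, read 6.64, 6.96 and 6.95 in mock, clone 4 and clone 10, so both clones were above mock by about 0.31. Wnt7a went the other way, from 6.65 in mock to 6.35 in each clone. Limma's adjusted p was 0.198 for Wnt3a and 0.210 for Wnt7a. Their values and those of Wnt6 lay near or below the array medians, a range that RMA compresses.

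Wnt7b, a ligand gene of the mammary epithelium, was split between the clones, at 8.35 in mock, 8.39 in clone 4 and 8.03 in clone 10. Wnt4, which acts in ductal side-branching downstream of progesterone, read 7.63 in mock and 7.48 in each clone. Wnt5a, the ligand of ROR receptors, read 5.77 on all 3 arrays, and Wnt2, Wnt3, Wnt8a and Wnt11 were also equal on all arrays. The other ligand genes, Wnt1, Wnt2b, Wnt5b, Wnt8b, Wnt9a, Wnt9b, Wnt10b and Wnt16, had mean differences between 0.01 and 0.22. Porcn, the gene of the acyltransferase that Wnt proteins need for secretion, measured 9.06 in mock, 9.06 in clone 4 and 9.01 in clone 10. Of the 19 Wnt genes and Porcn, 9 were higher than mock in both clones and 3 lower, and 12 lay below the array median on every array. Across all genes 33.7% were higher, 17.9% lower and 44.5% below the array median on every array.

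**Figure D2:**
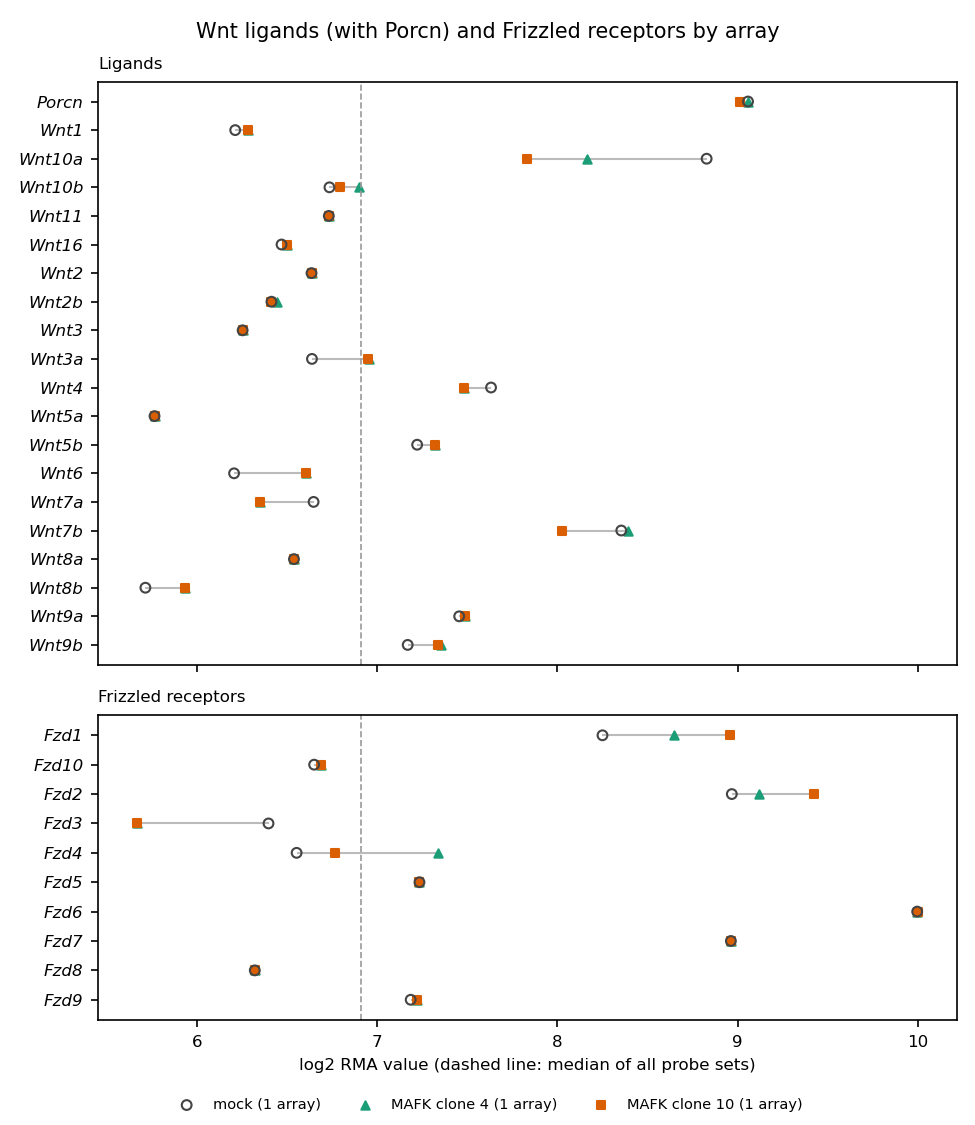
Log2 RMA values (horizontal axis) of the Wnt ligand genes with Porcn (top) and the Frizzled genes (bottom), with 1 marker per array and a grey line over the range. Wnt10a, Fzd3 and Fzd1 have both clones on 1 side of mock, and Fzd4 stands out by clone 4, at 7.34 against 6.77 in clone 10 and 6.55 in mock.

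The Frizzled genes, which encode the receptors for Wnt proteins, included members on both sides of mock. Fzd3, a receptor of planar polarity, read 6.40 in mock and 5.67 in each clone, a difference of -0.73 ± 0.07 (SE), or 1.66-fold lower, with a limma adjusted p of 0.0783. Its value is below the array medians, and its clones are tied. Fzd3 lies on chromosome 14, whose genes had a mean difference of -0.16 in clone 4 and -0.08 in clone 10. Relative to that mean the difference of Fzd3 was -0.61. Limma with a prior that follows intensity called Fzd3 alone among the members.

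Fzd1 was at 8.25 in mock, 8.65 in clone 4 and 8.96 in clone 10. The difference was 0.55 ± 0.17 (SE) with a limma adjusted p of 0.289. Fzd2, a close relative of Fzd1, read 8.97, 9.12 and 9.42 in the same order. In both genes the clones were above mock and clone 10 read highest. Fzd4, which is also the receptor for norrin, stood at 6.55 in mock, 7.34 in clone 4 and 6.77 in clone 10. The gap of 0.57 between its clones was the widest among the members.

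Fzd5, Fzd7 and Fzd8 had equal values on all arrays, at 7.23, 8.96 and 6.32. Fzd6, a polarity receptor, read 10.00, 10.00 and 10.00 after rounding. Fzd9 and Fzd10 differed from mock by 0.04 each. In all, 5 of 10 Frizzled genes were higher in both clones and 1, Fzd3, was lower, beside 33.7% and 17.9% of all genes.

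The co-receptor genes held the largest difference of all members. Ror1 (probe set 10506201, chromosome 4) measured 8.53 in mock, 7.48 in clone 4 and 7.29 in clone 10. Both clones were below mock, by 1.05 and 1.25, and lay 0.20 from each other. The mean difference was -1.15 ± 0.12 (SE), with a limma adjusted p of 0.0892. By the smaller of the clones' differences Ror1 ranked 553 among the 19935 genes. The genes of chromosome 4 had a mean difference of -0.02 in each clone.

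Ror2, the paralog of Ror1, was at 6.98 in mock, 7.24 in clone 4 and 7.34 in clone 10, so both clones were above mock where Ror1 was below. Its difference was 0.30 ± 0.09 (SE) with a limma adjusted p of 0.264. Lrp5 read 10.19, 9.97 and 9.66 in mock, clone 4 and clone 10, with both clones lower and a limma adjusted p of 0.456. Lrp6 read 9.62, 9.74 and 9.58, with the clones on either side of mock. Ryk read 10.68 on each array. All 5 co-receptor genes lay above the array median on every array, beside 51.2% of all genes.

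Among the R-spondin receptors and the ligases they oppose, Znrf3 had the largest positive mean difference of any member. ZNRF3 is a ligase that removes Frizzled from the cell surface and is itself a product of a target gene of the pathway. Znrf3 stood at 8.63 in mock, 9.60 in clone 4 and 9.37 in clone 10 (probe set 10383982, chromosome 11). Both clones were above mock, by 0.98 and 0.74. The mean difference was 0.86 ± 0.14 (SE), or 1.81-fold higher, with a limma adjusted p of 0.140. Its paralog Rnf43 read 6.57 in mock and 6.52 in each clone. Lgr4, an R-spondin receptor gene, read 9.81, 9.26 and 9.54, lower in both clones, with a difference of -0.42 ± 0.16 (SE) and a limma adjusted p of 0.368. Lgr5 read 5.94 on all arrays, and Lgr6 read 6.65 in mock and 6.78 in each clone.

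**Figure D3:**
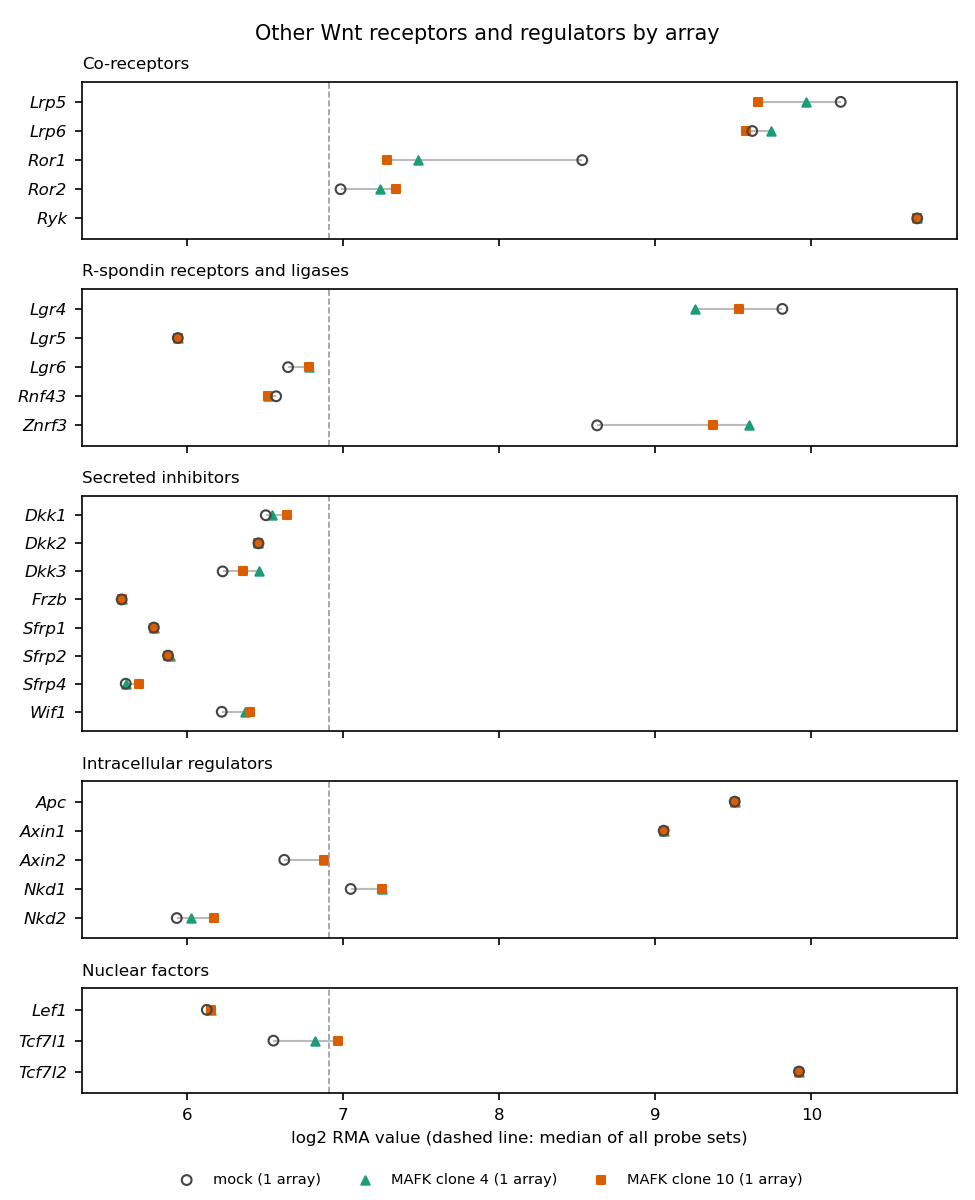
Log2 RMA values (horizontal axis) of the co-receptors, R-spondin receptors and ligases, secreted inhibitors, intracellular regulators and nuclear factors, with 1 marker per array. Ror1 in both clones lies to the left of mock and Znrf3 to the right, and all 8 secreted inhibitors lie to the left of the dashed median.

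The secreted inhibitor genes showed small differences at low values. All 8 lay between 5.58 and 6.64, below the array median on every array, where 44.5% of all genes also lay. Sfrp1, Frzb and Dkk2 were equal on all arrays. Dkk3 measured 6.23 in mock, 6.47 in clone 4 and 6.36 in clone 10. Wif1 read 6.22, 6.37 and 6.40 in that order. Dkk1, an inhibitor that binds LRP6, read 6.51, 6.54 and 6.64. None of the 8 had an unadjusted limma p under 0.05, a threshold that 17.5% of all genes passed, so that with 8 genes little can be read from the count. At such values a difference may be hidden by RMA's compression, and no detection calls were used.

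Of the intracellular regulators, Axin1 and Apc, scaffolds of the complex that marks beta-catenin for degradation, were equal on all arrays at 9.05 and 9.51. Axin2, a feedback inhibitor and widely used readout of beta-catenin signalling, read 6.62 in mock and 6.88 in each clone. The difference was 0.26 ± 0.07 (SE) with a limma adjusted p of 0.246. Nkd1, another feedback inhibitor, read 7.05 in mock and 7.25 in each clone, with a limma adjusted p of 0.326. Nkd1 lies on chromosome 8, whose genes had a mean difference of 0.12 in each clone. Nkd2 read 5.94, 6.02 and 6.18.

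The nuclear factor genes that were measured were Tcf7l2, Tcf7l1 and Lef1. Tcf7l2 was equal on all arrays at 9.92. Tcf7l1, which mostly represses target genes, was at 6.55 in mock, 6.82 in clone 4 and 6.97 in clone 10. The difference was 0.34 ± 0.10 (SE) with a limma adjusted p of 0.274. Lef1, itself a target of the pathway, read 6.13 in mock and 6.16 in each clone. Of the 7 members in the list of transcriptional targets, 5 (Znrf3, Axin2, Nkd1, Lef1 and Dkk1) were above mock in both clones, as were 33.7% of all genes. Rnf43 was below, and Lgr5 was equal on all arrays. Lef1 was above by only 0.03, and its sign turned after a second quantile normalization (-0.0114). Dkk1 was above by only 0.04 in clone 4.

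**Figure D4:**
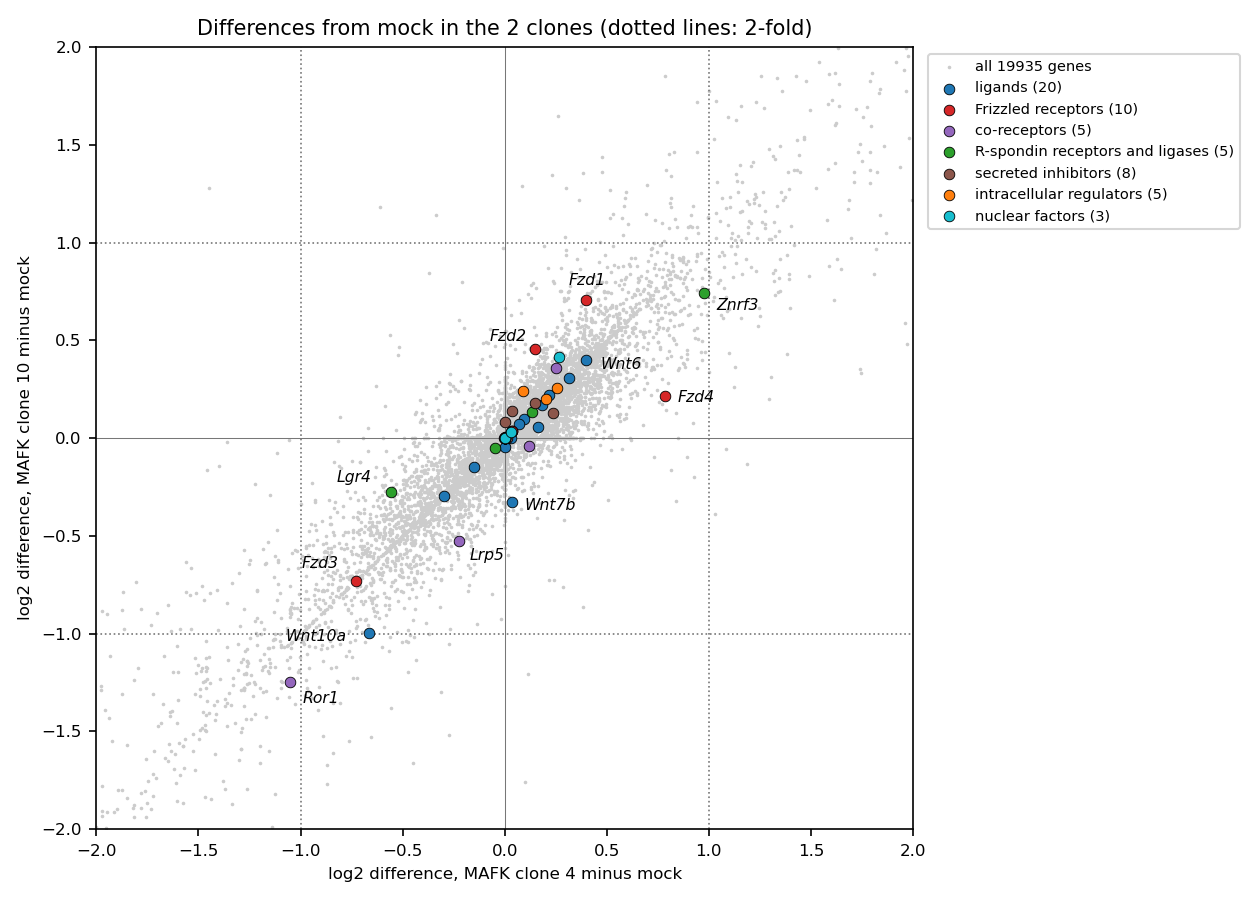
Log2 difference from mock in clone 4 (horizontal axis) and clone 10 (vertical axis) for the 56 Wnt members, coloured by role, and all 19935 genes in grey; both axes are limited to a size of 2. Both clones share the 1 mock array, so an error in mock moves a gene along the diagonal; only Ror1 lies beyond the dotted 2-fold lines in both clones.

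Some members differed between the clones. At 1.2-fold, 7 members were apart between clone 10 and clone 4 (12.5%), beside 6.15% of all genes. They were Fzd1, Fzd2, Fzd4, Lgr4, Lrp5, Wnt7b and Wnt10a. Fzd1, Fzd2 and Lgr4 were higher in clone 10, and the other 4 were higher in clone 4. None of the 56 members was 2-fold apart, a gap so rare (0.441% of all genes) that little can be read from its absence.

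Other genes of the pathway were read from 7 lists, with 138 genes beyond the members. Of these, 3 were at least 2-fold higher and 3 at least 2-fold lower in both clones (4.35%, beside 3.0% of all genes), and 1 passed limma (0.725%, beside 1.16%). Sox9, a transcription factor gene that responds to Wnt in some tissues, rose from 8.32 in mock to 10.38 in clone 4 and 10.23 in clone 10, with a limma adjusted p of 0.0430. It did not pass limma after a second quantile normalization (adjusted p = 0.0548) or with genes centred by chromosome (adjusted p = 0.118 on the median and 0.0526 on the mean). Centring on the median left the Sox9 difference from mock at 1.99, and under that setting no gene passed. Of the 36 transcriptional targets measured, 10 were lower than mock in both clones and 18 higher. Across all genes 17.9% were lower and 33.7% higher. None of the 10 passed limma. Of all 36 targets, 2 lay below mock by 2-fold or more in each clone and 1, Sox9, lay above. The shares across all genes were 1.81% lower and 1.19% higher. Bmp4, a growth factor gene, read 10.59, 8.98 and 8.82, with a limma adjusted p of 0.0505. Ccn4, which encodes a matricellular protein also known as WISP1, read 10.33, 8.65 and 8.97, with a limma adjusted p of 0.0972. Both clones were thus below mock by more than 2-fold in Bmp4 and Ccn4. Plaur, the urokinase receptor gene, came near that size, at 10.28, 9.38 and 9.22, with a limma adjusted p of 0.0917, and Myc was less far apart, at 10.85, 10.42 and 10.17. Zbed3, on the higher side, read 9.64, 10.08 and 10.11, with a limma adjusted p of 0.136. Plaur, Myc and Zbed3 are named here after their values were seen, and more of the list was higher than lower. The median difference of the target list was 0.03 in clone 4 and 0.02 in clone 10, against 0 in all genes.

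Of 22 planar polarity genes, Fat4 was the 1 gene 2-fold apart, beside 3.0% of all genes. It encodes a large cadherin that pairs with Dachsous, and stood at 6.05 in mock, 9.39 in clone 4 and 9.84 in clone 10. Clone 4 was above mock by 3.34 and clone 10 by 3.79. Their mean is 11.8-fold as measured, from a mock value below the array median, where RMA compresses differences. This size rests on 1 mock array, and the limma adjusted p was 0.0549. With low genes left out of the fit, Fat4 (0.0494) and Bmp4 (0.0489) passed limma. Of 12 glypicans, syndecans and sulfatases, 1 was 2-fold higher and 1 was 2-fold lower in both clones, beside 1.19% and 1.81% of all genes. The syndecan gene Sdc3 was higher, at 8.13 in mock, 9.39 in clone 4 and 10.49 in clone 10. Sulf2, which encodes a sulfatase that trims heparan sulfate at the cell surface, was lower, at 10.77, 7.45 and 9.47, so its clones differed from each other more than clone 10 did from mock. Limma's adjusted p was 0.286 for Sdc3 and 0.448 for Sulf2.

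No gene was 2-fold apart in both clones, and none passed limma, in the other 4 lists. Across all genes the shares were 3.0% and 1.16%, so little can be read from this absence in lists of such size. These held 29 genes of the destruction complex and Dishevelled, 22 nuclear partners, 9 genes of Wnt secretion and 17 further secreted regulators and co-receptors. At an unadjusted limma p under 0.05 there were 6 (20.7%), 4 (18.2%), 3 (33.3%) and 1 (5.88%) of them, beside 17.5% of all genes. Ctnnb1, the beta-catenin gene, measured 12.30 in mock, 12.20 in clone 4 and 12.23 in clone 10, with a limma adjusted p of 0.891. Wls, the carrier of Wnt proteins to the cell surface, read 11.09, 10.67 and 10.78, with both clones lower and a limma adjusted p of 0.224.

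**Figure D5:**
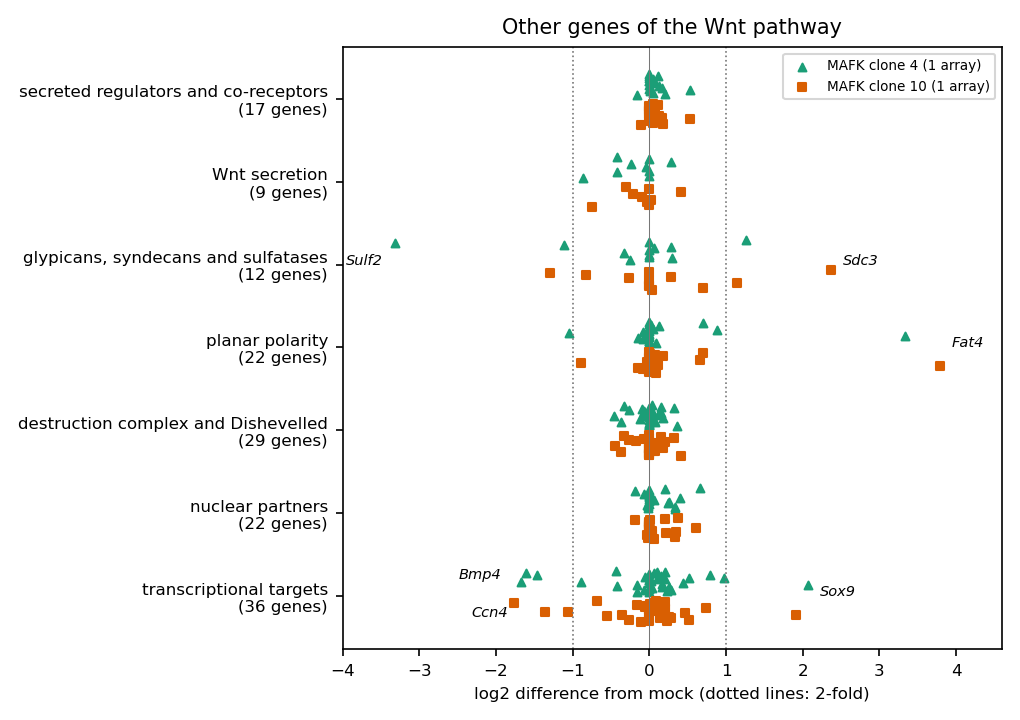
Log2 difference from mock (horizontal axis) in clone 4 (triangles) and clone 10 (squares) for the genes of 7 Wnt pathway lists, with vertical scatter added only to separate points. Named genes are those 2-fold or more from mock on 1 side in both clones; the target list includes 7 members of the group described here.

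The cells were set against marker lists. Of 10 epithelial markers, 4 (Krt7, Krt19, Cldn3 and Cldn4) were higher in both clones and 3 (Krt8, Krt18 and Cdh1) lower. Across all genes 33.7% were higher and 17.9% lower. The mean of the 10 was 8.68 in mock, 8.17 in clone 4 and 8.15 in clone 10. Most of that drop comes from Cdh1 alone, with differences from mock of -4.50 and -4.71. The keratin genes Krt8, Krt18 and Krt19 read between 10.92 and 13.67, while Epcam and Esrp1 read 5.58 and 5.48 on all arrays, below the array medians. Krt18 read 11.95, 10.92 and 11.08 in mock, clone 4 and clone 10, with a limma adjusted p of 0.0972. Krt8 read 13.67, 13.18 and 13.31. Cdh1, the E-cadherin gene, fell from 11.35 in mock to 6.85 in clone 4 and 6.64 in clone 10 (limma adjusted p = 0.0282). Both clones lie below the array medians, so the measured 24.3-fold, taken from the mean of the clones, is a lower bound. Cdh1 did not pass limma with genes centred on the chromosome median (adjusted p = 0.0989), a setting under which no gene passed. Its product binds beta-catenin at junctions, and the part of this fall in the values of Wnt genes was not tested. Mean values in mock, clone 4 and clone 10 were 6.06, 6.09 and 6.09 over 8 endothelial markers and 5.75, 5.81 and 5.82 over 7 immune markers. They were 6.54, 6.46 and 6.47 over 8 fibroblast markers and 6.64, 6.62 and 6.59 over 8 basal markers. Of the fibroblast markers, 4 (Col1a1, Col1a2, Col3a1 and Thy1) were higher in both clones and 2 (Dcn and Pdgfra) lower, and none passed limma. Dcn read 7.88, 5.76 and 6.06, with a limma adjusted p of 0.0711. The lower mean of the fibroblast list in the clones comes from Dcn, since more of these markers were higher than lower. The Mafk probe set read 8.49, 8.74 and 8.59. Its probes were not matched to the transgene, so it is no check of the labels. Fewer cells of a type and less RNA per cell cannot be told apart in such bulk samples.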

How the data were processed

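The authors deposited log2 expression values per probe set, made with RMA per the submitters' processing notes; its version, the genome build and any filter are not given in the sources used here. Per the labels' protocols, total RNA was extracted with ISOGEN and 100 ng of it was labelled with a WT expression kit. The number of arrays, 3, limits the precision.

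Only the 21780 of 28815 probe sets with a single gene symbol were used, leaving out 1605 with several and 5430 without one. Current symbols and chromosomes were taken by Entrez identifier from the RefSeq genes of GRCm38.p6. The highest-mean probe set stood for each gene. Differences from mock were taken in each clone, and a gene was apart at 2-fold or more in both clones in 1 direction.

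The test was limma 3.58.1 in R 4.3.3 on all 3 arrays, two-sided, with Benjamini-Hochberg adjustment over 19935 genes and a threshold of 0.05. Each gene has 1 residual degree of freedom, from the clones, so mock is assumed to vary as they do. The prior (1.93 degrees of freedom, SD 0.07) came from genes whose clones differed by more than 1e-08. The method was also run on simulated data. There, genes tied in the clones had no noise on any array, so the run does not show how the fit treats such genes here.

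Members and lists were chosen with earlier results of these data known. Named were members apart or passing, the 3 highest-value members of each role, feedback targets, Ctnnb1, Mafk, Cdh1 and list genes apart; naming of other members and of markers came after seeing their values. Alternatives were a second quantile normalization, a filter on low genes, centring by chromosome, other priors, treat, other thresholds, all probe sets of a gene, and each clone left out.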

Additional observations from a re-analysis of the deposited data

How the results depend on the processing

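Ror1 was the 1 member 2-fold apart in both clones under a second quantile normalization, the filter on low genes, centring by chromosome median or mean, and the mean over all probe sets. At 1.5-fold there were 4 members (Ror1, Fzd3, Wnt10a and Znrf3) and 1230 genes in all (6.17%). Without clone 4, Ror1 was again the 1 member and 715 genes were apart, and without clone 10 there were 1 and 753; 1 array against 1 allows no test.

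The count that passed limma differed between settings. A second quantile normalization called 8 members (Axin2, Fzd3, Nkd1, Wnt3a, Wnt4, Wnt6, Wnt7a and Wnt8b) and 2267 genes, limma's own prior 10 and 3553, and a prior with an intensity trend 1 (Fzd3) and 365. Centring by chromosome mean, chosen after seeing the data, called 0 and 360, and centring by chromosome median 0 and 0. Treat against 1.2-fold called 0 members and 175 genes. The shares among members were 14.3%, 17.9% and 1.79% in the first 3, beside 11.4%, 17.8% and 1.83% of all genes. The cause was not tested.

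Signs turned in a second quantile normalization for Lef1 (-0.0114), Porcn (0.00666) and Ryk (0.0241), and with centring by chromosome mean for Fzd6 (-0.0146) and Ryk (0.0482). They also turned for Lrp6 without clone 4 (from 0.04 to -0.04) and for Wnt7b without clone 10 (from -0.15 to 0.03). Ror1 kept its direction under the normalization, filter, centring and probe set alternatives, with limma adjusted p-values from 0.0767 to 0.149. Sox9 did not pass after a second quantile normalization (0.0548) or either centring (0.118 and 0.0526). Cdh1 did not pass after centring by chromosome median (0.0989).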

Other observations

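Several Wnt genes lie next to each other in the GRCm38.p6 gene table, with 0 protein-coding genes between them. Wnt6 and Wnt10a on chromosome 1 are such a pair, and their mean differences from mock had opposite signs, 0.40 and -0.83. In the other 3 pairs the differences were 0.31 for Wnt3a beside 0.03 for Wnt9a, 0.18 for Wnt9b beside 0 for Wnt3, and 0.11 for Wnt10b beside 0.07 for Wnt1. No member of these pairs passed limma, and the difference within a pair was not tested.

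Fzd10os, an RNA from the strand opposite Fzd10 that is no member of the group, read 6.43 in mock and 6.58 in each clone, while Fzd10 read 6.65 and 6.69.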
